A study of Mus musculus with 10 samples.

Results

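The 6 genes described here are the beta-thymosins Tmsb4x (ENSMUSG00000049775) and Tmsb10 (ENSMUSG00000079523) and the stathmins Stmn1 (ENSMUSG00000028832), Stmn2 (ENSMUSG00000027500), Stmn3 (ENSMUSG00000027581) and Stmn4 (ENSMUSG00000022044), 6 of the 22373 genes in a table of ribosome footprint counts from the developing mouse neocortex. They were taken by symbol as the 2 abundant thymosin genes and the stathmin family, on the grounds that they hold the largest footprint counts outside the histone genes, so they were chosen by their abundance, which is given as a description with no test. The description held for Tmsb4x, Tmsb10 and Stmn1, which ranked 1, 2 and 3 outside the 66 histone genes by mean share of all counts, while Stmn2, Stmn4 and Stmn3 ranked 129, 177 and 291. Histone genes here are those with symbols that start with Hist. Histone genes with other symbols, such as H3f3a (mean share 0.517%), stayed outside that set. Ribosome profiling sequences the stretches of mRNA that ribosomes cover, so a gene's footprint count reflects its mRNA level and how densely that mRNA is occupied, and the counts alone cannot tell the 2 apart. The neocortex was dissected from wild-type CD-1 mice at embryonic days E12.5, E14, E15.5 and E17 and at birth (P0), with no genetic or drug treatment at any stage, and each library was a pool of brains of both sexes. There were 2 biological replicate libraries per stage and 10 in all.

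Beta-thymosins are very small proteins that bind single actin molecules and hold them in reserve, away from growing filaments. Stathmins do the comparable job for microtubules: they bind tubulin dimers and promote microtubule shrinkage, and phosphorylation weakens that binding. Stmn1 is a soluble protein found in dividing progenitors and in young neurons, while Stmn2, Stmn3 and Stmn4 carry a membrane anchor and are known as neuronal proteins of the growth cone and the Golgi.

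Total counts were between 21378041 and 36129988 in 9 libraries and 7544404 in P0 replicate 1. The P0 pair also stood apart in its spread: over the 4559 genes with a mean count of at least 500, the SD of the log2 ratio between the replicates was 0.54 at P0 and between 0.13 and 0.22 at the other 4 stages. In the paragraphs on each member, its fitted changes to P0 are therefore given with and without each P0 library. Histone genes held 36.3% of all counts at E12.5 and 8.07% at P0, so any share of all counts rises as they fall. Tests used counts scaled by TMM (trimmed mean of M values), whose factors were between 0.808 and 1.22, and levels are given as CPM, the counts per 1000000 of the TMM-scaled library size. A change was called where limma-voom gave a Benjamini-Hochberg adjusted p below 0.05 over the 13484 genes tested and a change of at least 0.32 in size on the log2 scale. As a description of the tissue, 5 neocortical genes were followed (Emx1, Emx2, Tbr1, Neurod6 and Lhx2). None was at 0 in any library, and they summed to between 329 and 519.9 CPM. From E12.5 to P0, 3 of the 5 were called lower and 1 higher, where 32% of all genes were lower and 30.1% higher. The 5 had a median log2 fold change of -1.93. No other tissue was compared, so this does not test identity.

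The 6 genes took up an increasing part of the footprint pool until E17. Together they held 3.15% and 2.34% of all counts in the 2 E12.5 libraries, 3.29% and 3.85% in the E14 pair, 6.17% and 6.996% in the E15.5 pair, 8.38% and 8.50% in the E17 pair, and 5.15% and 7.63% in the P0 pair. The E12.5 and E14 libraries were all below the E15.5 libraries, the E17 libraries were the highest, and the P0 libraries straddled the E15.5 range. With the histone genes left out of the denominator, the summed share for E12.5 was 4.29% ± 0.688 (SD, n = 2), that for E14 was 5.39% ± 0.465, that for E15.5 was 8.02% ± 0.607, that for E17 was 9.69% ± 0.0136 and that for P0 was 6.93% ± 1.72, so the stages kept the same order. The 2 thymosins made up most of this sum, with 2.31% of all counts at E12.5 and 6.53% at E17, against 0.434% and 1.92% for the 4 stathmins. Even the smallest count of any of the 6 genes, 1426 for Stmn4 at E12.5, leaves counting error small beside the spread between replicates.

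**Figure D1:**
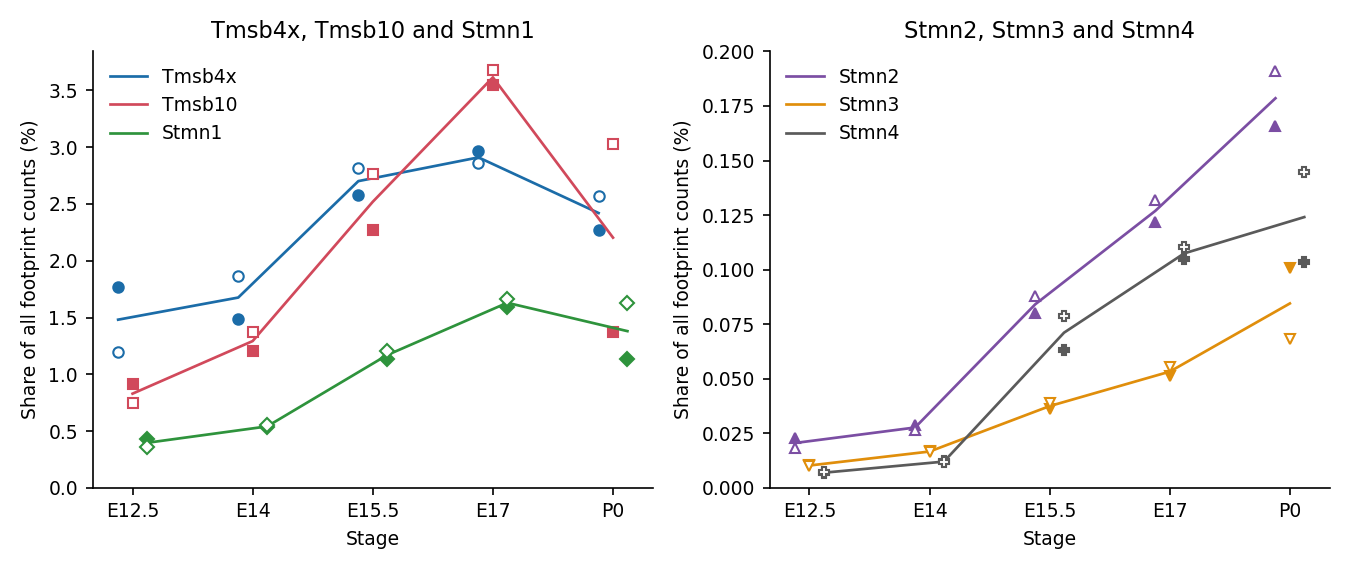
Share of all footprint counts (%, vertical axes from 0) for each gene at the 5 stages, with filled symbols for replicate 1, open symbols for replicate 2 and lines through the mean of the 2 libraries. Tmsb10 passes Tmsb4x in both E17 libraries and falls to 1.38% in P0 replicate 1 but 3.03% in P0 replicate 2, while Stmn2 has its highest shares, 0.166% and 0.191%, at P0.

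Tmsb4x was the most abundant gene outside the histones, with a mean share of 2.24%. It ranked first outside the histones in 7 libraries and 2nd in both E17 libraries and P0 replicate 2, where Tmsb10 ranked first. Tmsb10 followed with a mean of 2.09% and ranked 3rd in both E12.5 libraries. Stmn1 had a mean share of 1.02% and moved furthest in rank of these 3, from 14th and 16th in the E12.5 libraries to 11th and 9th at E14 and 3rd in all 4 libraries of E15.5 and E17. It was 6th in P0 replicate 1 and 3rd in P0 replicate 2. The 4th and 5th places by mean share belonged to the cytoplasmic actins Actg1 (0.784%) and Actb (0.720%), followed by Nnat (0.719%), the translation factor Eif5a (0.676%), the ribosomal protein gene Rpl41 (0.675%), Ptma (0.622%) and Ppia (0.608%). Counts were not divided by coding length, which was not used here, so this order is one of footprints and not of proteins made or of footprints per base.

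The minor stathmins also climbed the ranking. Stmn2 ranked 472nd and 560th at E12.5 and 57th and 55th at P0. Its share was 0.0229% and 0.0182% in the E12.5 libraries and 0.166% and 0.191% in the P0 libraries. Stmn4 held 0.00667% and 0.00720% at E12.5 and 0.103% and 0.145% at P0, and Stmn3 held 0.0107% and 0.00978% at E12.5 and 0.101% and 0.0682% at P0.

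Tmsb4x changed least of the 6 genes by the fitted E12.5-to-P0 change. Its level was 20795 and 14767 CPM in the E12.5 libraries, 17462 and 21349 in the E14 pair, 24365 and 26710 in the E15.5 pair, 27051 and 25654 in the E17 pair, and 18656 and 21848 in the P0 pair. The E12.5, E14 and P0 libraries overlapped one another, and the 4 libraries of E15.5 and E17 lay above them all. The step from E14 to E15.5 had a log2 fold change of 0.40 (SE 0.18) with a limma-voom adjusted p of 0.115, and the 95% interval ran from -0.0076 to 0.81. Between E12.5 and P0 the log2 fold change was 0.20 (SE 0.18, limma-voom adjusted p = 0.354). Across all 5 stages the limma-voom F test gave an adjusted p of 0.0596, so Tmsb4x did not pass, whereas 63.8% of all genes tested did. This miss turned on single libraries and on the method. The adjusted p was 0.0182 without E12.5 replicate 1, 0.0340 without P0 replicate 1 and 0.0307 without P0 replicate 2. With all 10 libraries it was 0.0131 by DESeq2 and, by limma-voom, 0.0121 with sample quality weights, 0.0403 with the histone genes left out and 0.00522 when scaled by total counts alone. The miss remained with edgeR's quasi-likelihood test (adjusted p = 0.0560). By limma-voom it remained with DESeq2 size factors (0.0651), total counts outside the histone genes (0.0583), no filter on low counts (0.0631) and a replicate block (0.0908). It also remained when any other library was left out.

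Tmsb10 was higher at E17 than at any other stage, and its P0 libraries did not match each other. It stood at 10720 and 9245 CPM in the E12.5 libraries, 14202 and 15753 in the E14 pair, 21451 and 26188 in the E15.5 pair, 32382 and 33073 in the E17 pair, and 11282 and 25812 in the P0 pair. From E12.5 to E17 each stage lay above the one before it with no overlap, while P0 replicate 1 fell near the E12.5 libraries and P0 replicate 2 within the E15.5 range. P0 replicate 2 was 2.29-fold above P0 replicate 1, a log2 difference of 1.19 against an SD of 0.54 over genes for that pair. The F test across stages passed (limma-voom adjusted p = 0.0118). No single step passed: the log2 fold change was 0.59 (SE 0.32) from E12.5 to E14, 0.66 (SE 0.32) from E14 to E15.5, 0.47 (SE 0.33) from E15.5 to E17 and -0.96 (SE 0.32) from E17 to P0, with limma-voom adjusted p-values of 0.427, 0.147, 0.424 and 0.0691.

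The tests of Tmsb10 rested on the P0 pair even where P0 was not compared, because that pair enters the estimate of spread for every gene. With either P0 library left out, all 3 embryonic steps were called higher, but those fits also called more of all genes at each step. The Tmsb10 changes themselves barely moved. They were 0.59, 0.67 and 0.47 on the log2 scale in temporal order without P0 replicate 1, and 0.59, 0.67 and 0.46 without P0 replicate 2. The E17-to-P0 change was -1.51 on the log2 scale (limma-voom adjusted p = 0.000784) without P0 replicate 2 and -0.34 (adjusted p = 0.0999) without P0 replicate 1. The E12.5-to-P0 change was 0.75 (SE 0.32, adjusted p = 0.0683) with both libraries, 1.38 (adjusted p = 5.16e-05) without P0 replicate 1 and 0.21 (adjusted p = 0.210) without P0 replicate 2. With both libraries kept, the E17-to-P0 change was called lower by DESeq2 (-0.79, adjusted p = 0.0444) and by limma-voom with sample quality weights (-1.17, adjusted p = 0.0461). Whether Tmsb10 was called lower at birth therefore depended on which P0 library was kept and on the method.

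Stmn1, the soluble stathmin, rose between E14 and E15.5. It measured 5055 and 4492 CPM in the E12.5 libraries, 6252 and 6289 in the E14 pair, 10689 and 11423 in the E15.5 pair, 14546 and 14958 in the E17 pair, and 9277 and 13870 in the P0 pair. The first 4 stages did not overlap and lay in temporal order, and the P0 libraries lay on either side of the E15.5 pair and below the E17 pair. The E14-to-E15.5 change was 0.82 on the log2 scale (SE 0.17, limma-voom adjusted p = 0.00711), and it missed the threshold without E15.5 replicate 2 (adjusted p = 0.0523). From E12.5 to P0 Stmn1 was 2.36-fold higher (log2 1.24, SE 0.17, limma-voom adjusted p = 0.000328). On the log2 scale it was higher by 1.55 without P0 replicate 1 and by 0.99 without P0 replicate 2. The change from E17 to P0 was -0.39 (SE 0.17, adjusted p = 0.145), and it was -0.64 (limma-voom adjusted p = 0.00294) without P0 replicate 2 but -0.087 (adjusted p = 0.528) without P0 replicate 1.

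Stmn2, a neuronal stathmin of the growth cone, rose 6.03-fold from E12.5 to P0 (log2 2.59, SE 0.13, limma-voom adjusted p = 1.43e-06). On the log2 scale Stmn2 rose by 2.73 without P0 replicate 1 and by 2.50 without P0 replicate 2. It measured 269 and 225 CPM in the E12.5 libraries, 336 and 306 in the E14 pair, 757 and 833 in the E15.5 pair, 1113 and 1185 in the E17 pair, and 1362 and 1627 in the P0 pair. No 2 stages overlapped, and each stage was above the one before. The largest of its 4 steps was from E14 to E15.5 (log2 1.31, SE 0.13, limma-voom adjusted p = 0.000235). The step from E15.5 to E17 was also called (log2 0.53, SE 0.13, adjusted p = 0.0434). That call was lost when any 1 of the 8 libraries from E12.5 to E17 was left out, with adjusted p-values between 0.0532 and 0.281, and kept without either P0 library. From E17 to P0 its change was 0.37 (SE 0.13, limma-voom adjusted p = 0.0816), and it was called without P0 replicate 1 (0.50, adjusted p = 0.0188) but not without P0 replicate 2 (0.28, adjusted p = 0.134).

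Stmn3 rose 5.64-fold from E12.5 to P0 (log2 2.50, SE 0.15, limma-voom adjusted p = 3.74e-06). On the log2 scale Stmn3 rose by 2.24 without P0 replicate 1 and by 2.78 without P0 replicate 2. It measured 126 and 121 CPM in the E12.5 libraries, 199 and 187 in the E14 pair, 342 and 366 in the E15.5 pair, 467 and 497 in the E17 pair, and 827 and 581 in the P0 pair. The stages did not overlap and followed temporal order, but the P0 libraries differed in the opposite direction to those of the other 5 genes, with P0 replicate 1 above P0 replicate 2 by 0.51 on the log2 scale. The E14-to-E15.5 step was 0.88 (SE 0.15, limma-voom adjusted p = 0.00292). Stmn3 was the single member called between E17 and P0 (log2 0.53, SE 0.15, adjusted p = 0.0427). This call held in 1 of the 10 fits that left out a library: without P0 replicate 2 the change was 0.81 (adjusted p = 0.00112), without P0 replicate 1 it was 0.27, below the required 0.32, and without any 1 of the other 8 the adjusted p was between 0.0673 and 0.213.

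Stmn4 had the largest fitted change of the 6 genes. Its levels were 78.4 and 89.2 CPM in the E12.5 libraries, 142 and 137 in the E14 pair, 598 and 747 in the E15.5 pair, 956 and 989 in the E17 pair, and 849 and 1232 in the P0 pair. The 4 embryonic stages did not overlap, and the P0 pair enclosed the E17 pair. The step from E14 to E15.5 was 4.80-fold (log2 2.26, SE 0.18, limma-voom adjusted p = 0.00011), a change above that of 99.0% of all genes tested. From E12.5 to P0 Stmn4 rose 12.2-fold (log2 3.60, SE 0.18, limma-voom adjusted p = 1.45e-06). On the log2 scale Stmn4 rose by 3.88 without P0 replicate 1 and by 3.37 without P0 replicate 2. Between E17 and P0 its log2 fold change was 0.07 (SE 0.18, limma-voom adjusted p = 0.816), with 0.34 (adjusted p = 0.0853) without P0 replicate 1 and -0.17 (adjusted p = 0.370) without P0 replicate 2.

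**Figure D2:**
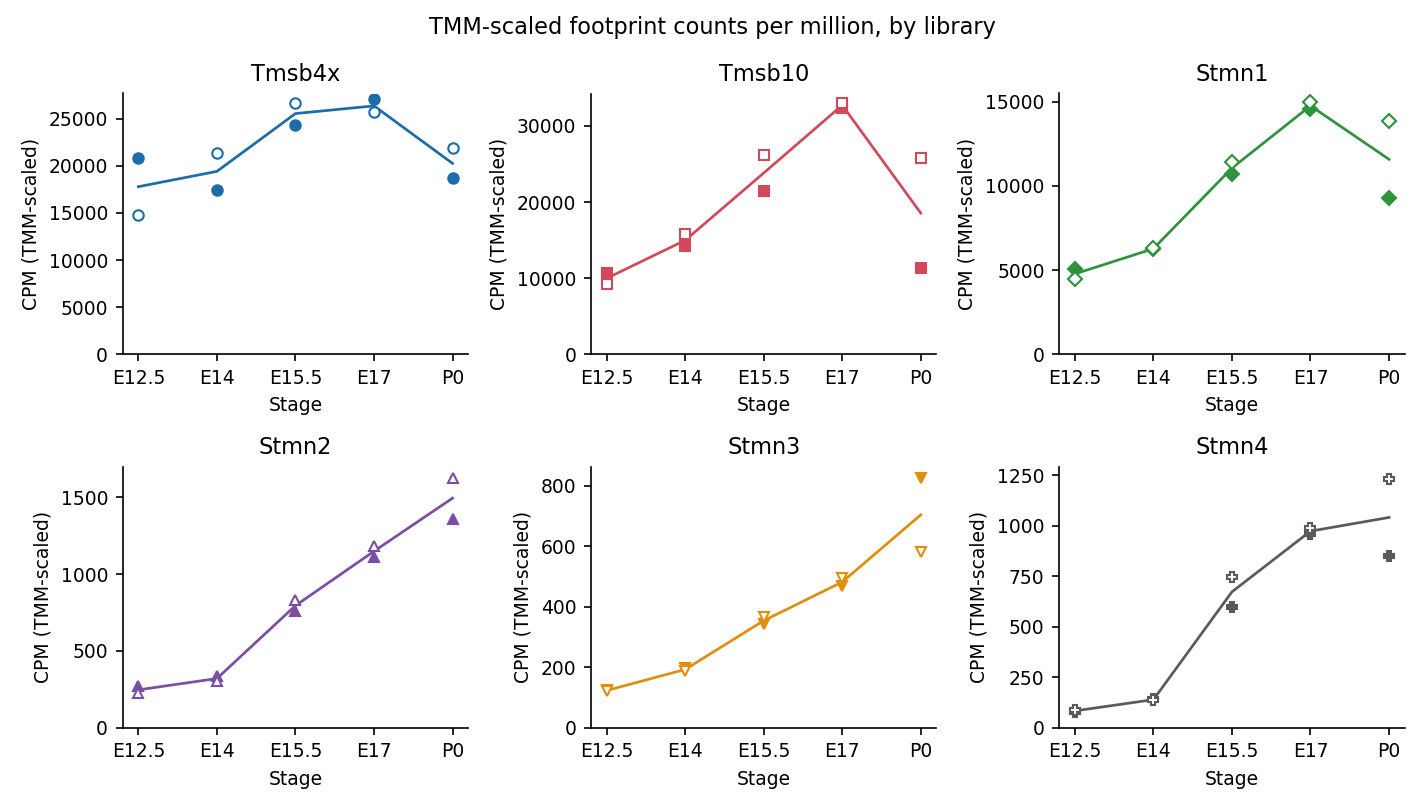
TMM-scaled CPM (vertical axes from 0, one scale per gene) of the 6 genes at the 5 stages, with a symbol for each library, filled for replicate 1 and open for replicate 2, and lines through the stage means. Tmsb10 has its widest pair at P0 (11282 and 25812 CPM), and the jump of Stmn4 from 142 and 137 CPM at E14 to 598 and 747 at E15.5 is the steepest of the 6 as a fold.

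The comparisons of successive stages ask when in neurogenesis the footprint levels moved. From E12.5 to E14 limma-voom called 0 of the 6 genes, where 0.638% of all genes were called; 4 of the 6 (the stathmins) had an unadjusted p below 0.05, edgeR's quasi-likelihood test called 0 and DESeq2 called 2, and their log2 fold changes were between 0.14 and 0.73. From E14 to E15.5 all 4 stathmins were called higher and neither thymosin was, where 16.5% of all genes were called higher. From E15.5 to E17 only Stmn2 was called higher, against 5.61% of all genes, and from E17 to P0 only Stmn3, against 9.46%. From E12.5 to P0 the 4 stathmins were called higher, against 30.1% of all genes. The F test across the 5 stages passed for all but Tmsb4x, where 63.8% of all genes tested passed. As a median over the 6 genes, the log2 fold change was 0.49, 0.85, 0.46 and -0.16 over the 4 steps and 1.87 from E12.5 to P0, while the median of all genes tested lay between -0.023 and 0 each time.

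**Figure D3:**
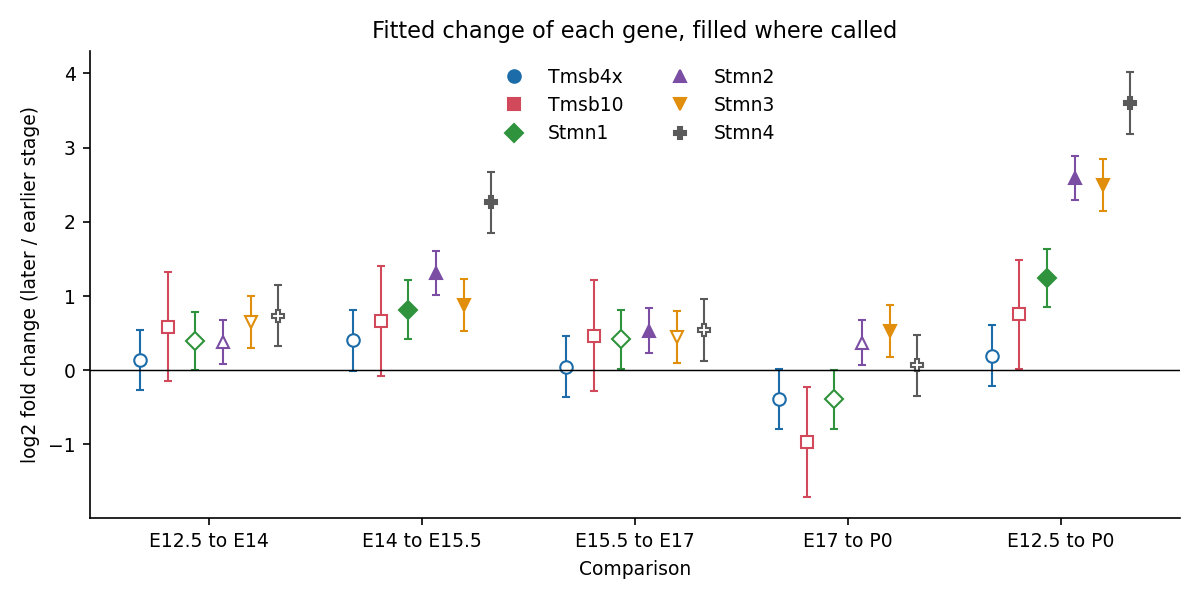
Fitted log2 fold change of each gene (later over earlier stage) in the 5 comparisons, with 95% confidence intervals of limma-voom as bars and filled symbols where the change was called. All filled symbols lie above 0 and belong to stathmins, and Stmn4 is the highest in the E14-to-E15.5 step (2.26) and over the whole course (3.60).

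The thymosin calls depended on the scaling and on how the spread was estimated. With libraries scaled by their total counts alone, the median of all genes tested shifted upward by 0.29 (log2) between E14 and E15.5 and by 0.51 between E12.5 and P0. On that scale Tmsb4x was called higher in both comparisons (log2 0.70 with limma-voom adjusted p = 0.0185, and 0.73 with adjusted p = 0.00862), and so was Tmsb10 (0.96 with adjusted p = 0.0379, and 1.28 with adjusted p = 0.00611). With TMM scaling kept, the E14-to-E15.5 step was also called for both at almost the same fold by limma-voom with sample quality weights (adjusted p = 0.0319 for Tmsb4x and 0.00552 for Tmsb10) and by limma-voom fitted to the 2 stages alone (0.0145 and 0.00187). These settings called more of all genes at that step: 44.9% with total counts alone, 48.2% with quality weights and 49.8% with the 2 stages alone. The main fit called 36.1%. Of 11 alternatives other than leaving out a library, 3 called that step for each thymosin, the ones given here. Scaling by DESeq2 size factors, scaling by total counts outside the histone genes and leaving out the histone genes did not call it. The limma-voom adjusted p-values were 0.123, 0.109 and 0.0825 for Tmsb4x and 0.146, 0.129 and 0.122 for Tmsb10. The called stathmin changes between E14 and E15.5, like those between E12.5 and P0, kept their direction and their call under all 11 alternatives other than leaving out a library.

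Ratios within a library compare 2 members without any scaling between libraries, and 7 pairs were tested across the 5 stages by an exact permutation test of the libraries' stage labels, with p-values adjusted over the 7 pairs and 0.00106 as the smallest p it can give. The ratios are of counts, not per coding length, so their change and not their size is what compares. Tmsb10 footprints were 0.516 and 0.626 times those of Tmsb4x in the E12.5 libraries, 0.813 and 0.738 in the E14 pair, 0.880 and 0.981 in the E15.5 pair, 1.20 and 1.29 in the E17 pair, and 0.605 and 1.18 in the P0 pair. The first 4 stages rose in order without overlap, by 2.19-fold in all, and the P0 libraries spanned the E14 and E15.5 ranges. The stage difference did not pass with all 10 libraries (exact permutation p = 0.14, adjusted p = 0.163). It passed on the 8 embryonic libraries (exact permutation p = 0.00952, the smallest p that 8 libraries allow, adjusted p = 0.0167).

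Among the stathmins, the 3 membrane-anchored members gained on Stmn1. The Stmn4 count was 0.0155 and 0.0199 of the Stmn1 count in the E12.5 libraries, 0.0228 and 0.0217 in the E14 pair, 0.0559 and 0.0654 in the E15.5 pair, 0.0657 and 0.0661 in the E17 pair, and 0.0915 and 0.0888 in the P0 pair. All 5 stages were apart and in order, and the P0 pair, which differed for each gene alone, was close together in this ratio. The Stmn4 to Stmn1 ratio rose 5.14-fold from E12.5 to P0, of which 2.72-fold fell between E14 and E15.5 (exact permutation p = 0.00106, adjusted p = 0.0037). The Stmn3 to Stmn1 ratio rose 2.36-fold (exact permutation p = 0.00106, adjusted p = 0.0037) and the Stmn2 to Stmn1 ratio 2.54-fold (exact permutation p = 0.00529, adjusted p = 0.00926). The Stmn2 to Stmn1 ratio was 0.0533 and 0.0501 in the E12.5 libraries and 0.147 and 0.117 in the P0 libraries. The Stmn3 to Stmn1 ratio was 0.0248 and 0.0270 in the E12.5 libraries and lay between 0.0298 and 0.0332 in the 6 libraries from E14 to E17. It was 0.0891 in P0 replicate 1 and 0.0419 in P0 replicate 2, so how much of its rise fell at the end differed between the P0 libraries. Without the P0 stage the Stmn2 to Stmn1 ratio missed the threshold (exact permutation p = 0.0476, adjusted p = 0.0556), and without the E15.5 or the E17 stage its adjusted p was 0.05, also not below it.

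The minor stathmins also shifted among themselves. The Stmn4 to Stmn2 ratio rose from 0.291 and 0.396 at E12.5 to 0.789 and 0.897 at E15.5 and was 0.623 and 0.757 at P0 (exact permutation p = 0.00317, adjusted p = 0.00741), a call lost without the E12.5 or the E14 stage (adjusted p = 0.05 by the exact permutation test). The Stmn3 to Stmn2 ratio (adjusted p = 0.422) and the Stmn4 to Stmn3 ratio (exact permutation, adjusted p = 0.0652) did not pass with all libraries. As a share of the footprints of the 4 stathmins, Stmn2, Stmn3 and Stmn4 together held 8.56% and 8.83% in the E12.5 libraries, 9.77% and 9.10% in the E14 pair, 13.7% and 14.6% in the E15.5 pair, 14.8% and 15.1% in the E17 pair, and 24.7% and 19.9% in the P0 pair. Stmn1 thus still held 77.7% of stathmin footprints on average at P0.

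**Figure D4:**
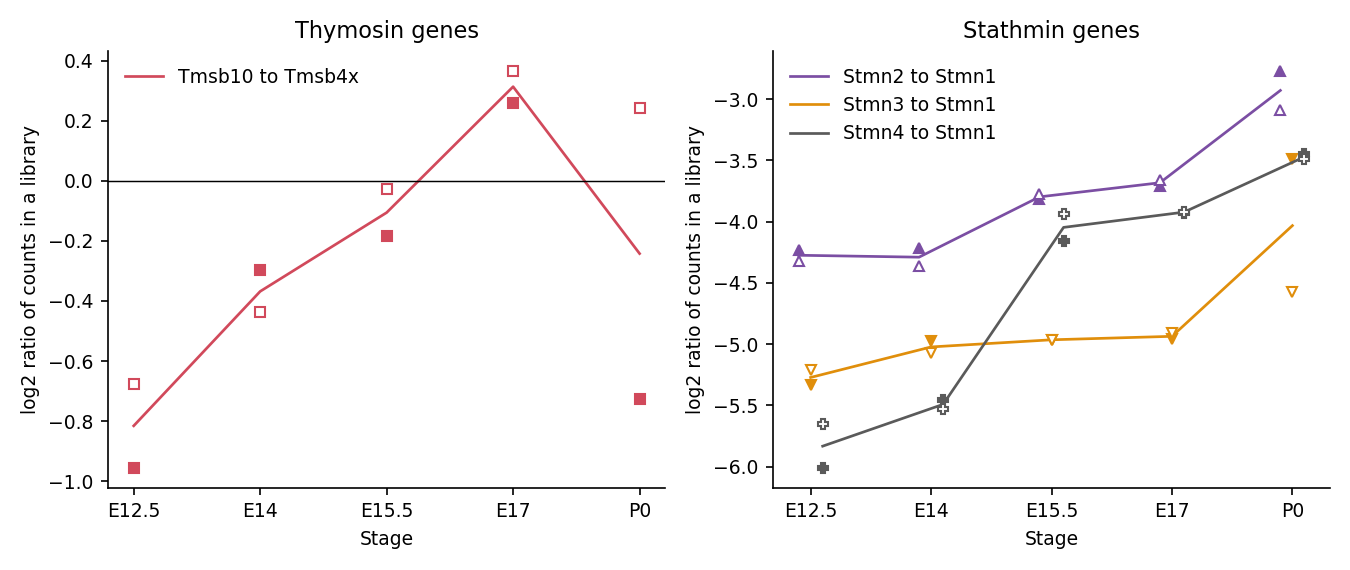
log2 of the ratio of footprint counts between 2 genes of a family within a library, by stage, filled for replicate 1 and open for replicate 2, with lines through the stage means and a horizontal line at equal counts for the thymosins. Tmsb10 passes Tmsb4x at E17 and its ratio parts at P0 (0.605 and 1.18 as plain ratios), whereas the Stmn4 to Stmn1 ratio rises from stage to stage and its P0 libraries lie together.

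Other genes of these families were few and low. Tmsb15a was at 0 in 8 libraries, with 3 counts in E12.5 replicate 1 and 56 in P0 replicate 2. Stmnd1, a gene with a stathmin domain, had at most 1 count in a library. Tmsb15l, Tmsb15b1 and Tmsb15b2 had between 173 and 4515 counts and were called in none of the 5 comparisons. They are overlapping genes, and the Tmsb15l count was within 95.8% to 108% of the sum of the other two in each library, so their values are uncertain.

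Reads of Tmsb10 may be divided with a near copy. Gm9844, which RefSeq lists as a pseudogene, held between 17.1% and 20.3% of the Tmsb10 count in every library, and the table does not show whether the same reads were counted for both. Adding its counts to Tmsb10 changed none of the calls: the E17-to-P0 change became -0.95 (limma-voom adjusted p = 0.0741) and the Tmsb10 to Tmsb4x test gave an adjusted p of 0.169 by the exact permutation test.

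The genes whose course was most like that of each member were found among 9214 genes with a mean count of at least 100, by the root mean square difference of log2 CPM after centring each gene over the 10 libraries, and correlations are across those libraries, which share their stages and depth. For Stmn2 these were Mapk10 (0.085, r = 0.997), which encodes a neuronal JNK kinase, Pclo (0.086, r = 0.996), a presynaptic scaffold gene, and Tmod2 (0.090, r = 0.997), a neuronal actin-capping tropomodulin. For Stmn4 they were the postsynaptic scaffold gene Dlg2 (0.18, r = 0.993), Samd12 (0.18, r = 0.994) and the microtubule-associated tau gene Mapt (0.20, r = 0.992). For Stmn3 they were Mcf2l (0.11), Cend1 (0.12) and Inpp4a (0.12), and for Stmn1 they were Limch1 (0.088), Ube2e2 (0.098) and Gm45062 (0.12). Tmsb4x was nearest to Zfp940 (0.094), Eef1e1 (0.11) and Nsd3 (0.12), which have mean counts of 141, 1036 and 957. For Tmsb10 the nearest was Gm9844 (0.061), then Rala (0.19) and 4921524J17Rik (0.20). None of the 6 members was among the 3 nearest of another.

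The genes that work beside these proteins were followed as 3 lists. Of 16 genes for actin and its monomer-handling proteins (actins, profilins, cofilins, cyclase-associated proteins, twinfilins and the MICAL oxidases), 8 were called higher and 2 lower from E12.5 to P0, where 30.1% of all genes were higher and 32% lower. The highest called were Mical2 (log2 3.81) and Mical3 (1.94), which oxidise actin, and the lowest were Twf1 (-0.79) and Pfn1 (-0.77), which bind actin monomers as the thymosins do. Scaled by total counts alone, 13 were called higher and 0 lower, so the downward calls of this list depended on the scaling, while none of its called genes changed sign. Between E14 and E15.5, 2 were higher and 1 lower, where 16.5% of all genes were higher and 19.6% lower (10 and 0 when scaled by total counts alone), and the list's median log2 fold change was 0.17.

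Of 21 tested genes for tubulins, microtubule-depolymerising kinesins and severing enzymes, 13 were called higher and 5 lower from E12.5 to P0. Of all genes, 30.1% were higher and 32% lower. Tubb4a (2.25) and the neuronal tubulin Tubb3 (2.10) were the highest called, and the mitotic kinesins Kif2c (-3.85) and Kif18b (-3.63) the lowest. From E14 to E15.5, the step at which all 4 stathmins rose, 11 were higher and 5 lower (12 and 2 when scaled by total counts alone). Of all genes, 16.5% were higher and 19.6% lower at that step. Tuba1b and Tuba1c had close levels in every library, such as 1949 and 1903 CPM in E12.5 replicate 1 and 6575 and 6647 in P0 replicate 1. Multi-mapping reads were kept, and whether the same reads were counted for several tubulin genes was not tested. Of 14 tested kinases known to phosphorylate stathmins, 12 were higher and 2 lower from E12.5 to P0, against 30.1% and 32% of all genes. Camk2b (4.78) and Camk4 (3.63) rose most, and the mitotic kinases Aurkb (-4.08) and Cdk1 (-3.78) fell. At the E14-to-E15.5 step 9 were higher and 2 lower, against 16.5% and 19.6% of all genes. The median log2 fold changes from E12.5 to P0 were 0.34, 0.94 and 0.84 for the 3 lists, against -0.013 for all genes, and they are descriptions without a test of the lists.

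**Figure D5:**
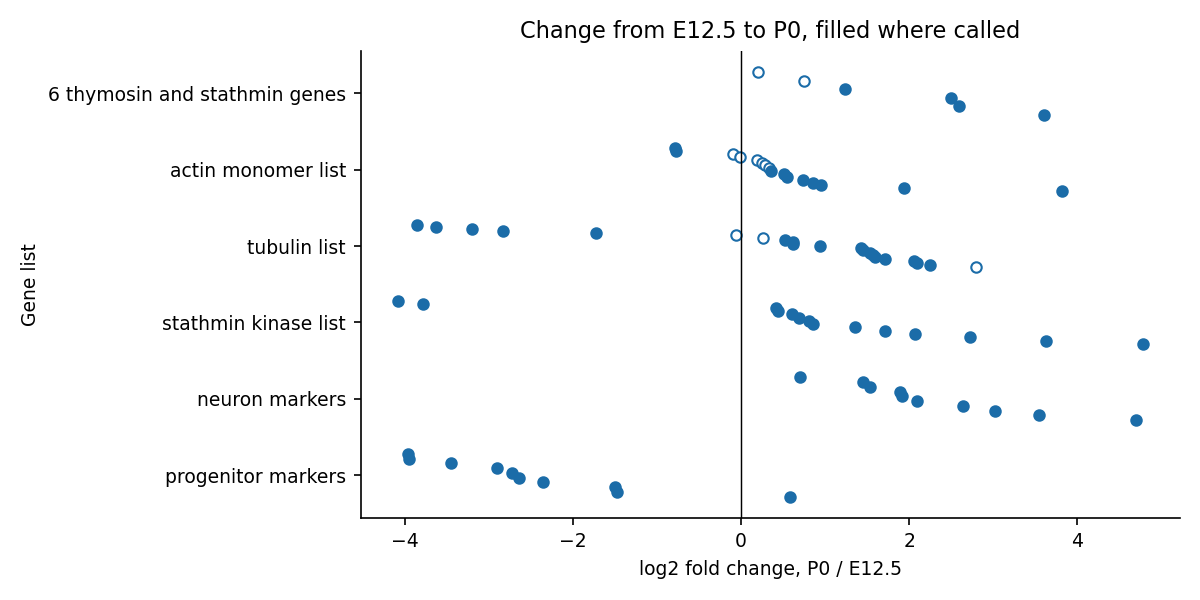
log2 fold change from E12.5 to P0 (horizontal axis) of each tested gene in the members and 5 lists, with a filled symbol where the change was called by limma-voom. The members lie between 0.20 and 3.60, neuron markers lie entirely above 0, and 9 of 10 progenitor markers lie below 0.

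Neuron markers rose with the stathmins from E14 to E15.5, while most markers of the other cell types were called lower. In bulk tissue fewer cells of a type and less RNA per cell cannot be told apart. Of all genes tested, 16.5% were called higher and 19.6% lower from E14 to E15.5. All 10 neuron markers were called higher at that step, and their summed level went from 2830 to 2868 CPM in the E14 libraries to 5896 to 6108 in the E15.5 libraries and 7226 to 8236 at P0. Of 10 progenitor markers 9 were called lower at that step and 1, Fabp7, higher. Their summed level did not fall at that step, with 2283 and 2209 CPM in the E14 libraries and 2158 and 2316 in the E15.5 libraries. It was 2360 and 2484 at E17 and 1413 and 1955 at P0. Fabp7 alone went from 1041 and 1071 CPM at E14 to 1534 and 1721 at E15.5. Marker genes of other cell types were called lower at the same step. For all 7 of meningeal fibroblasts the sum went from between 64.8 and 73.7 CPM to between 2.66 and 3.13. For all 7 of endothelium it went from between 26.2 and 33.7 to between 7.77 and 9.31. All 4 tested of choroid plexus fell too, and that list's sum went from between 1111 and 1117 to between 10.5 and 13.3. Red blood cell genes summed to between 10036 and 11600 CPM at E12.5 and E14, 6902 to 7418 at E15.5 and E17, and 1438 to 1861 at P0, with 6 of 8 called lower from E14 to E15.5, and microglial and macrophage genes stayed between 22.8 and 39.9 CPM in all libraries, with 6 of 9 called lower from E14 to E15.5, or 2 of 9 when scaled by total counts alone. The part of these cells in the levels of the 6 genes was not tested.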

How the data were processed

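Footprint counts per gene were deposited by the authors as 1 table for 10 Ribo-seq libraries (raw counts, not normalized). Per the authors' methods, tissue was lysed without cycloheximide, digested with RNases T1 and A, and monosomes were isolated on gradients. Duplicate reads were removed before the 4 random bases at each end were trimmed, contaminant RNAs were filtered with Bowtie 2, and reads were aligned with STAR (2.7.0 in the submitters' processing notes), keeping multi-mapping reads. Which counter filled the table is not given in the sources used here.

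Ensembl identifiers were matched to symbols (22274 of 22373). Genes with at least 32 counts summed over the 2 libraries of a stage were kept (13484). limma-voom (limma 3.58.1, edgeR 4.0.16, R 4.3.3) with TMM was fitted to all 10 libraries with 1 coefficient per stage, with Benjamini-Hochberg adjustment, and was tested on simulated data. Ratios used an exact permutation test of the between-stage F, which has no direction. Replicates were separate pools and differed beyond counting noise (chi-square per degree of freedom between 16.7 and 177). The genes named are the 6 members, other thymosin and stathmin genes, the 10 most abundant non-histone genes, the 3 nearest genes to each member, and the 2 highest and 2 lowest called genes of each list from E12.5 to P0. The members and lists were chosen with earlier results of these data known. Alternatives were other scalings, edgeR's quasi-likelihood test, DESeq2 1.42.0, sample quality weights, no filter, histone genes left out, only the 2 stages compared, a replicate block and leaving out each library. With Gm9844 added and the ratios without either P0 library were chosen after seeing the data. No genome was used, so positions and sequences are not given. Some genes of the neocortex list are not reported here.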

Additional observations from a re-analysis of the deposited data

How the results depend on the processing

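The counts of members called from E14 to E15.5, from E12.5 to P0 and by the F test stayed within 1.5 times their reported value under the alternatives run. From E12.5 to E14, where 0 were called, DESeq2 called 2, sample quality weights 2 and leaving out a library 0 to 4, with 4 without either P0 library. From E15.5 to E17, where 1 was called, edgeR's quasi-likelihood test called 0, DESeq2 2, quality weights 5, no filter 0, only the 2 stages compared 5 and leaving out a library 0 to 5, with 5 without either P0 library. From E17 to P0, where 1 was called, total counts alone called 2, DESeq2 3, no filter 0, only the 2 stages compared 0 and leaving out a library 0 to 3, with 3 without P0 replicate 2. The cause was not tested. All 7 ratios passed without either P0 library (7 to 7), where the lone P0 library adds no spread of its own. The summed share outside the histone genes was 4.29% for E12.5, 5.39% for E14, 8.02% for E15.5 and 9.69% for E17, and of the TMM-scaled library size it was 4.13% at E14 and 7.64% at E17.

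Fold changes that turned sign were below threshold: Tmsb4x from E12.5 to E14 (-0.11 to 0.39 over libraries left out, with -0.11 without E12.5 replicate 2 and -0.0064 without E14 replicate 2), from E15.5 to E17 (-0.020 to 0.11, with -0.020 without E15.5 replicate 1) and from E12.5 to P0 (-0.049 to 0.45, with -0.049 without E12.5 replicate 2), and Stmn4 from E17 to P0 (-0.027 with quality weights and -0.17 to 0.34 over libraries left out, with -0.17 without P0 replicate 2). Beyond those counts, 722 of the other values kept direction and side of the threshold, 65 passed it newly and 27 no longer passed.

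The labels tie libraries of equal number across stages by that number alone. The correlation of replicate differences between stages, over 4559 genes, was between -0.63 (E12.5 and P0) and 0.43 (E15.5 and P0). Whether libraries share a batch was not tested. With the replicate number as a block, 0 members were called from E15.5 to E17 (Stmn2, adjusted p = 0.0705 by limma-voom) and 0 from E17 to P0 (Stmn3, adjusted p = 0.0593 by limma-voom). With 2 libraries per stage and a P0 pair that differs by 2.29-fold for Tmsb10, a change of that gene at birth could not be settled. Depth did not limit the members, whose lowest count was 1426.

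Over all genes tested, the number called from E12.5 to E14 was 86, and it was 143 with total counts alone, 388 with DESeq2, 655 with quality weights, 27 with no filter, 4 with the replicate block, 11 with only the 2 stages compared and 0 to 1062 with a library left out. From E14 to E15.5 it was 4868, and 2739 to 6329 with a library left out. From E15.5 to E17 it was 1219, and 3717 with quality weights, 773 with no filter, 3268 with only the 2 stages compared and 0 to 2863 with a library left out. From E17 to P0 it was 2767, and 698 with quality weights, 0 with only the 2 stages compared and 552 to 4419 with a library left out.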
